A study of Mus musculus with 20 samples.

Results

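The genes described here encode the cytochrome P450 enzymes, the UDP-glycosyltransferases (UGTs) and the sulfotransferases of the mouse. P450 enzymes are heme proteins that insert oxygen into drugs, fatty acids, sterols and vitamins, drawing electrons from NADPH through a reductase. UGTs then attach a sugar, mostly glucuronic acid from UDP-glucuronic acid, and sulfotransferases attach sulfate from the donor PAPS, which makes products more soluble. In the kidney these enzymes are known mainly from the proximal tubule, where they also make lipid mediators of blood flow and salt transport. Members were the protein-coding genes with a symbol starting with Cyp, a number and a letter, or starting with Ugt or Sult. Cyp27b1 and Cyp24a1 were left out. The rule found 140 genes of the 54532 in the count table, and 70 of them had a mean of at least 10 counts over the 20 libraries. Of these, 61 passed the filter on low counts and were tested, and 9 did not pass. None of the 70 members under a mean of 10 passed, and 18 of those had no count in any library. Just above that mean lay Cyp3a25 with 11 counts and Cyp4f15 with 11.2, and just below it Cyp2j7 with 8.65 and Cyp17a1 with 7.95.

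The study took bulk RNA from 10 kidney tumors and 10 normal kidneys, all from 1 cohort of 10 mice. All were C57BL/6 mice of both sexes, young adults when injected, that carried Pax8 Cre and one LSL-Cas9 allele, so that Cas9 was made where the Pax8 promoter drives Cre. Adeno-associated virus without Cre, carrying sgRNAs against Vhl, Pbrm1, Keap1 and Tsc1, was injected into the kidney, and mice that gave normal tissue carried the same alleles and virus. Keap1 encodes an adaptor that keeps the transcription factor Nrf2 (gene Nfe2l2) low, Vhl one that does so for hypoxia-inducible factors. Libraries held 18447394 to 24902973 counts in tumors and 14737516 to 26679704 counts in normal kidneys. Levels are CPM, counts per 1000000 counts of a library scaled by TMM factors, and the spread is given as the lowest, median and highest of 10 libraries. Changes are log2 fold changes of tumors against normal kidneys, ± SE, from edgeR's quasi-likelihood test. P-values are adjusted over all 15354 genes tested, and a gene rose or fell where the adjusted p was under 0.05. No label says that same-numbered libraries came from one mouse. The test took all libraries as independent, although a cohort of 10 mice gave them all, and a fit with a replicate block is given at the end.

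Among the genes aimed at, Keap1 transcript ranged from 56 to 91.3 CPM in tumors (median 82.3) and from 36.6 to 50.6 CPM in normal kidneys (median 46.4), and Vhl from 12.3 to 28.6 CPM in tumors (median 17.9) and from 21.6 to 28.8 CPM in normal kidneys (median 25.9). These are levels of transcript and do not show whether an edit was made. Tumor 7 stood apart with 1565 CPM of the fibroblast gene Col1a1, against at most 139 in the other tumors. Normal kidneys 5, 7 and 8 held 2538, 3302 and 1765 CPM of the tubule injury gene Lcn2, against 9.77 to 232 in the other 7. Some results that rest on these libraries are given with and without them, and a member without such a value can still depend on them. The 4 markers of the thick ascending limb, distal tubule and collecting duct summed to 0.449 to 8.58 CPM in tumors and 3982 to 9942 CPM in normal kidneys. Of the 12 proximal tubule markers, 4 fell and none rose among 11 tested, with sums of 1318 to 10668 CPM in tumors and 2371 to 14595 CPM in normal kidneys. In bulk tissue, fewer cells of a type and less RNA per cell cannot be told apart. The liver expresses most members. Alb, the defining hepatocyte gene, lay at 0.0865 to 1.33 CPM in tumors and at up to 58.7 CPM in normal kidneys. The 8 hepatocyte markers summed to 88.2 to 638 CPM in tumors (median 185) and 37 to 1295 CPM in normal kidneys (median 145). Of them, 1 was higher (Apoa1) and 2 were lower in tumors. The part of liver cells in the members' levels was not tested.

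Of the 61 members tested, 15 rose and 25 fell in tumors. Across all genes tested, 23.6% rose and 23.8% fell, and the members' shares were 24.6% and 41%. Their median log2 fold change was -0.43, against -0.02 for all genes tested. When libraries were scaled by their totals instead, the median of all genes was -0.14, 11 members rose and 26 fell, and 38.5% of all called genes were higher in place of 49.8%. In 4 members every tumor lay above every normal kidney, a pattern of 5.87% of all genes tested, and in 10 every tumor lay below, a pattern of 4.74%. The families moved differently. Of the 39 P450 genes tested, 7 rose and 16 fell, with a median of -0.70. Of the 16 UGT genes, 8 rose and 5 fell, with a median of 0.76. Of the 6 sulfotransferase genes, none rose and 4 fell, with a median of -0.71. Whether the families differ from each other was not tested.

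**Figure D1:**
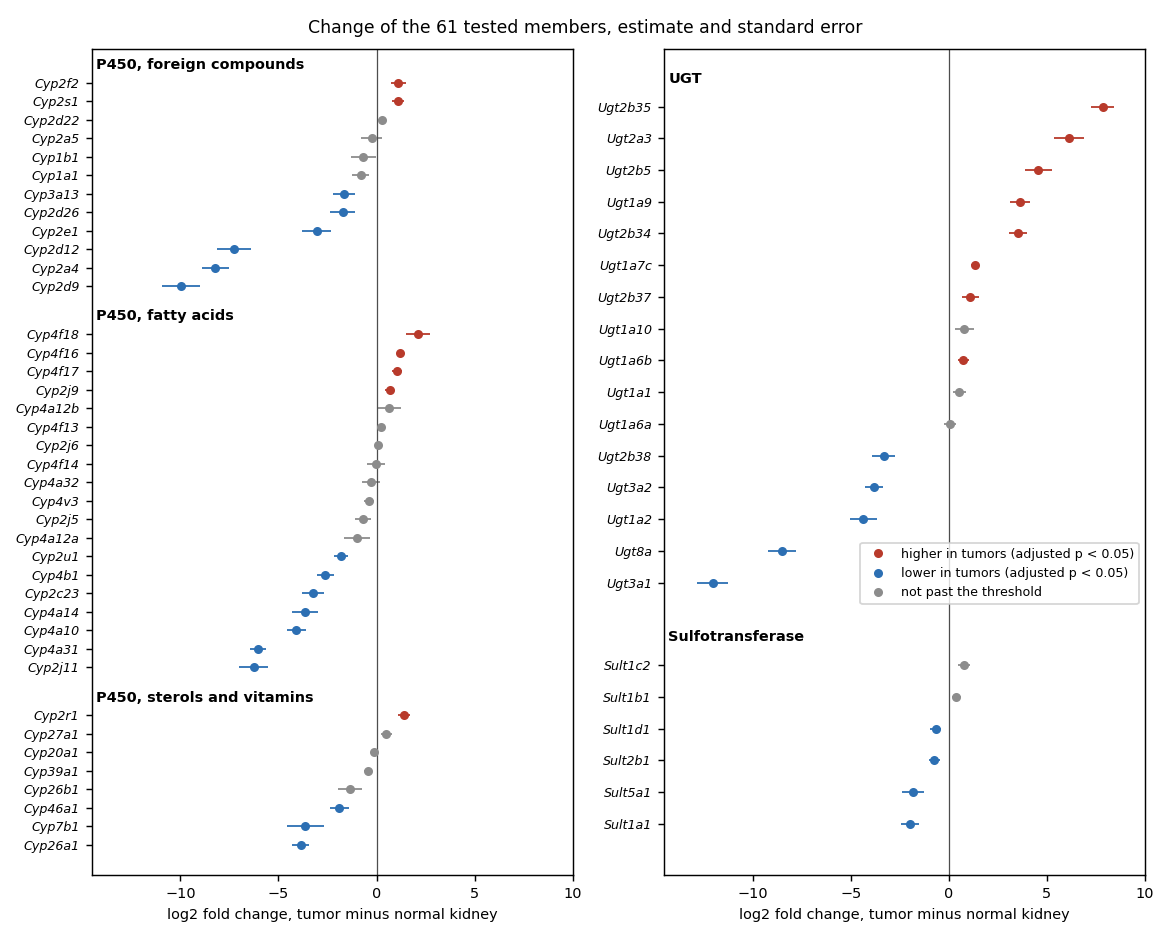
The log2 fold change of each of the 61 tested members (x axis, tumor minus normal kidney) is drawn as a point with its standard error, grouped by the enzymes' roles. Red points rose, blue points fell and grey points did not pass an adjusted p of 0.05; the UGT genes span the whole range, from 7.83 for Ugt2b35 to -12.04 for Ugt3a1.

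Summed per kilobase of gene length, so that genes can be compared, P450 transcripts came to 419 to 1032 (median 646) CPM per kilobase in tumors and 1474 to 4527 (median 2406) in normal kidneys, and the groups did not overlap. UGT transcripts came to 222 to 929 (median 690.2) in tumors and 182 to 777 (median 618) in normal kidneys, so their totals overlapped almost fully. The lowest tumor by UGT total was tumor 7 and the lowest normal kidney was normal kidney 7. Within the UGT total, however, some of the leading genes changed places. Ugt3a2 supplied a median 42.8% (27.9 to 64.8%) of the normal kidney total per kilobase and 2.57% (0.401 to 4.89%) of that in tumors. Ugt2b34 went from 4.52% (0.221 to 10.3%) to 36.9% (30.4 to 39.8%), and Ugt2b35 from 0.0912% (0.00727 to 0.50%) to 22.3% (18.3 to 28.6%). Ugt1a2 went from 19% (0.673 to 32.4%) to 0.804% (0.193 to 1.29%). Ugt1a7c was among the leading genes in both groups, with 9.91% (6.55 to 43.4%) in normal kidneys and 24% (13.8 to 34.2%) in tumors. Among P450 genes Cyp2j5 had the highest median share in both groups, with 17.4% (3.29 to 22.4%) in normal kidneys and 32.4% (5.28 to 46.3%) in tumors. Cyp2a5 went from 3.38% (0.844 to 29.4%) to 21.2% (9.3 to 36.3%), and Cyp4a14 from 14.1% (9.21 to 35.6%) to 2.3% (0.824 to 17.4%). By median level, however, Cyp4a14 led in normal kidneys, with 382 CPM per kilobase against 365 for Cyp2j5. Sulfotransferase transcripts summed to 117 to 490.3 (median 194) CPM per kilobase in tumors and 223 to 532 (median 347) in normal kidneys, and Sult1d1 led in both groups with 71.6% (64.1 to 89.6%) and 84.6% (76.6 to 94.4%).

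Close relatives among the members moved apart, so the stretches upstream of 5 genes are shown. They are the 250 bases before the gene start in RefSeq's annotation of GRCm38.p6, written 5′ to 3′ on the gene's strand. Cyp2a4 (chr7:26306942-26307191, plus strand) fell, while its near copy Cyp2a5 (chr7:26835089-26835338, plus strand) did not pass the test. Ugt2b37 (chr5:87254789-87255038, minus strand) rose by a weak call, described below, and its relative Ugt2b38 (chr5:87424204-87424453, minus strand) fell. In these 4 sequences capitals mark bases that differ from the paired gene or have no partner in the alignment. Ugt2b35 (chr5:87000610-87000859, plus strand) had the largest log2 rise of the tested members, and its capitals mark ACGTG, the core to which hypoxia-inducible factors can bind.
Cyp2a4: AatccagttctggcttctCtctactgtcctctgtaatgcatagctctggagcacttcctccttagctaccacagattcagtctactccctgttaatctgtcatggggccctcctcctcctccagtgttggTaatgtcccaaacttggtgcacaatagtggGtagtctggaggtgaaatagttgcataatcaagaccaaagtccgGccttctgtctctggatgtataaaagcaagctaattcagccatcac
Cyp2a5: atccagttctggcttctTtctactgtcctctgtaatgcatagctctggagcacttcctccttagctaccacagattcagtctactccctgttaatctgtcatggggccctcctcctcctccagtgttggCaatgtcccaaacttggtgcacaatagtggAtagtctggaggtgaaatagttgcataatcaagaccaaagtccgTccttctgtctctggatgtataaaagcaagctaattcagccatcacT
Ugt2b37: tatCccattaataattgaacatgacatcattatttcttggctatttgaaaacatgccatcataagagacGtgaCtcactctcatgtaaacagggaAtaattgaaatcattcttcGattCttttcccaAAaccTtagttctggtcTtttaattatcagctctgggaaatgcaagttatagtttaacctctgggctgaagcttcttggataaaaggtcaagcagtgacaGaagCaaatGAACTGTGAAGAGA
Ugt2b38: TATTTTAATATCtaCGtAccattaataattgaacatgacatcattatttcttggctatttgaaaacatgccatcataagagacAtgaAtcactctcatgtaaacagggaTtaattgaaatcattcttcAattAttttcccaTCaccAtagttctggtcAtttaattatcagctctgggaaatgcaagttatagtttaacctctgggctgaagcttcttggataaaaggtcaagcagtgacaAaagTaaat
Ugt2b35: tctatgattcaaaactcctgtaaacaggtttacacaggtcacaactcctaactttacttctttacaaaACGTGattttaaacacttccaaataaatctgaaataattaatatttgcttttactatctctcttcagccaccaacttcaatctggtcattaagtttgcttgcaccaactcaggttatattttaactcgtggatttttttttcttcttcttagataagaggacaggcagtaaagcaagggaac

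The Cyp2a4 and Cyp2a5 stretches shared 245 bases and differed at 4 aligned positions, with 2 bases unaligned at the ends. Those of Ugt2b37 and Ugt2b38 shared 224 bases, differed at 12 and left 28 unaligned. Ugt2b5, which rose, shared 212 bases with Ugt2b38 and differed from it at 28. RefSeq promoters were found for 56 of the 70 members, and 5 strings of bases are described, searched in the 250 bases on both strands. ACGTG stood in 7 of 56 members and 16.6% of all promoters searched. Those members were Ugt2b35 and Ugt2b37, which rose, Cyp2e1, Cyp46a1 and Sult2b1, which fell, and Cyp2j6 and Cyp4v3, which did not pass the test. TGACNNNGC, a core of the element to which Nrf2 binds, stood in 2 of 56 members and 10.2% of all promoters, namely Cyp4f14 and Cyp4f18, and a match to it can overlap the hypoxia core. The core bound by the aryl hydrocarbon receptor (T and any base, then GCGTG) stood in 2 of 56 members and 4.1% of all promoters, namely Cyp2c68 and Sult1d1. CAAAGTCCA, bound by Hnf4, stood in 3 of 56 members and 0.384% of all promoters, namely Cyp2c65, Cyp2c68 and Cyp2c69. These 3 are relatives of the same subfamily, and the likeness of their promoters was not measured. A direct repeat bound by nuclear receptors stood in 0 of 56 members and 0.0335% of all promoters. Members were counted by gene and all promoters by entry of the annotation, so the units of these shares differ. A match is a run of letters and not a site shown to be bound.

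The Ugt2 genes, whose enzymes conjugate steroids and bile acids, had the strongest rises. Their 6 tested members lie side by side on chromosome 5 from base 86889767 to base 87424203 of mm10, and 5 rose and 1 fell. Ugt2b35 ranged from 214 to 842 CPM in tumors (median 478) and from 0.189 to 6.64 CPM in normal kidneys (median 1.35). Every tumor lay far above every normal kidney, and the change was 7.83 ± 0.59, adjusted p = 9.78e-10. Ugt2b34, the UGT gene with the most counts, ranged from 299 to 1459 CPM in tumors (median 1135) and from 7.35 to 175 CPM in normal kidneys (median 83.1). Again no tumor reached down to the normal kidneys, and the change was 3.51 ± 0.46, adjusted p = 2.55e-06. Ugt2b5 ranged from 7.47 to 346 CPM in tumors (median 60.4) and from 0.754 to 12.5 CPM in normal kidneys (median 2.84). Of the tumors, 8 exceeded all normal kidneys, and the change was 4.55 ± 0.69, adjusted p = 1.33e-05. Ugt2a3 ranged from 0.375 to 59.6 CPM in tumors (median 14.9) and from 0.0599 to 0.623 CPM in normal kidneys (median 0.239). Only the lowest tumor overlapped the kidneys, and the change was 6.12 ± 0.75, adjusted p = 9.84e-07.

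Ugt2b37 and Ugt2b38 lie on either side of Ugt2a3. Ugt2b37 ranged from 1.15 to 21.7 CPM in tumors (median 4.98) and from 0.92 to 6.0 CPM in normal kidneys (median 2.63). Most tumors lay within the kidneys' range and 4 lay above it, with a change of 1.09 ± 0.42, adjusted p = 0.0373. This call is weak: 9 of the 20 libraries left out alone gave adjusted p-values from 0.0501 to 0.143, namely tumors 2 and 10 and normal kidneys 2, 3, 4, 5, 6, 7 and 9, with a log2 fold change of 0.64 (adjusted p = 0.143) without tumor 10. Ugt2b38 went the other way and ranged from 0.47 to 12 CPM in tumors (median 5.47) and from 11.4 to 139.6 CPM in normal kidneys (median 49.1). Of the tumors, 8 lay below every normal kidney, and the change was -3.33 ± 0.58, adjusted p = 6.88e-05. The longest transcripts of Ugt2b5 and Ugt2b38 share a run of 444 identical bases and those of Ugt2b37 and Ugt2b38 one of 118, so reads from such runs could have been assigned to either gene. How reads with several matches were counted is not given in the sources used here.

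**Figure D2:**
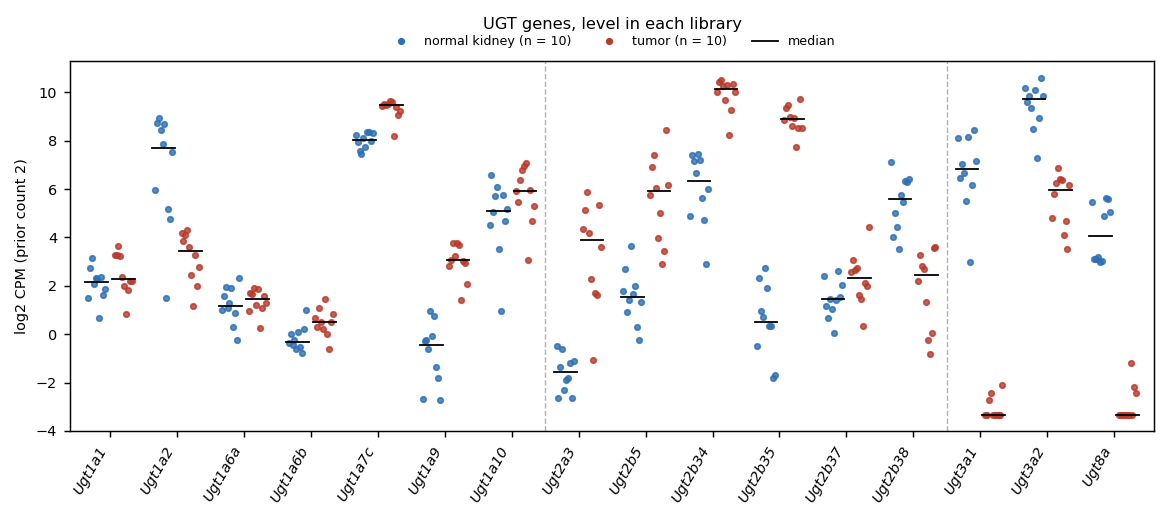
Each point is the log2 CPM (y axis, prior count 2) of 1 library for 1 of the 16 tested UGT genes (x axis), blue for normal kidneys and red for tumors, with black lines at the medians; dashed lines separate Ugt1, Ugt2 and the Ugt3 and Ugt8 genes. Tumors stand above all normal kidneys for Ugt1a9, Ugt2b34 and Ugt2b35 and below all of them for Ugt3a1, Ugt3a2 and Ugt8a.

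The Ugt1a genes on chromosome 1 are alternative first exons joined to common exons, so that reads in the shared part cannot name one gene and each count is uncertain. Ugt1a9 and Ugt1a2, for example, share a run of 1313 bases. Of the 7 tested, 3 rose and 1 fell. Ugt1a7c, the most abundant by counts, ranged from 295 to 808 CPM in tumors (median 707) and from 174 to 332 CPM in normal kidneys (median 266). Of the tumors, 9 exceeded all kidneys and tumor 7 was the lowest, with a change of 1.31 ± 0.17, adjusted p = 1.53e-06. Ugt1a9, an enzyme for phenolic drugs and fatty acids, ranged from 2.56 to 13.7 CPM in tumors (median 8.2) and from 0.0521 to 1.83 CPM in normal kidneys (median 0.636). The groups did not overlap, and the change was 3.62 ± 0.49, adjusted p = 3.72e-06, and 4.24 (adjusted p = 1.89e-06) without normal kidneys 5, 7 and 8. Ugt1a6b, for small phenols, ranged from 0.553 to 2.63 CPM in tumors (median 1.32) and from 0.488 to 1.93 CPM in normal kidneys (median 0.709). The groups overlapped in 8 tumors, the change was 0.72 ± 0.28, adjusted p = 0.0396, and 11 of the 20 libraries left out alone gave adjusted p-values from 0.0526 to 0.0922 (tumors 1, 3, 6 and 10 and normal kidneys 1, 2, 3, 4, 5, 7 and 8). Without kidneys 5, 7 and 8 together it was 0.51 (adjusted p = 0.164). Ugt1a2 moved the other way and ranged from 2.13 to 19.7 CPM in tumors (median 10.7) and from 2.7 to 493 CPM in normal kidneys (median 209). Normal kidney 7 was as low as the tumors, and the change was -4.35 ± 0.69, adjusted p = 2.55e-05. Ugt1a10 ranged from 8.37 to 134 CPM in tumors (median 61.3) and from 1.86 to 94.7 CPM in normal kidneys (median 34.6) with overlapping groups, and did not pass the test (0.79 ± 0.49, adjusted p = 0.197). With limma-voom its change was 0.96 (adjusted p = 0.0308). Ugt1a1, the bilirubin UGT, and Ugt1a6a did not pass either, with log2 fold changes of 0.52 (adjusted p = 0.207) and 0.05 (adjusted p = 0.907).

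All 3 genes of the Ugt3 and Ugt8 families fell, and in each of them every tumor lay below every normal kidney. These enzymes use sugars other than glucuronic acid. Ugt3a1, which transfers N-acetylglucosamine, ranged from 0 to 0.13 CPM in tumors (median 0) and from 7.85 to 350.0 CPM in normal kidneys (median 115). All 10 tumors together held 6 counts against 26970 in the normal kidneys, a ratio of 4645 with an exact 95% counting interval of 2134 to 12659 that covers counting error only. The fitted change was -12.04 ± 0.78, adjusted p = 1.11e-10, and -12.67 (adjusted p = 4.98e-10) without tumor 10. Ugt3a2, its neighbour on chromosome 15 and a user of UDP-glucose, ranged from 11.4 to 116 CPM in tumors (median 63.6) and from 157 to 1551 CPM in normal kidneys (median 846), with a change of -3.83 ± 0.45, adjusted p = 5.01e-07. Ugt8a, which makes galactosylceramide for myelin and kidney sulfatides, ranged from 0 to 0.341 CPM in tumors (median 0) and from 7.78 to 49.6 CPM in normal kidneys (median 19.3). Of the tumors, 7 had no count, and the change was -8.5 ± 0.72, adjusted p = 4.03e-09, and -9.52 (adjusted p = 9.59e-10) without tumor 7, the highest tumor.

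Among P450 genes of families 1 to 3 that act mainly on drugs, steroids and other foreign compounds, 12 were tested, 2 rose and 6 fell. The near copies Cyp2a4, a testosterone hydroxylase, and Cyp2a5, a coumarin hydroxylase, parted. Cyp2a4 ranged from 0.277 to 4.02 CPM in tumors (median 0.525) and from 68.6 to 1126 CPM in normal kidneys (median 227). Every tumor lay below every normal kidney, and the change was -8.22 ± 0.69, adjusted p = 3.66e-09, and -8.81 (adjusted p = 1.31e-09) without tumor 6, the highest, and -7.61 (adjusted p = 1.56e-09) without tumor 7 and normal kidney 9. Cyp2a5 ranged from 148 to 565 CPM in tumors (median 216) and from 61.7 to 1543 CPM in normal kidneys (median 142). The tumors lay inside the range of the kidneys, and the change was -0.24 ± 0.54, adjusted p = 0.737. The high kidneys were those with high Lcn2: kidneys 5, 7 and 8 held 1543, 840.1 and 305 CPM of Cyp2a5 and the other 7 held 61.7 to 177. Without these 3 kidneys the log2 fold change of Cyp2a5 was 1.4 (adjusted p = 0.00157), so its direction depends on them, and that of Cyp2a4 was -8.48 (adjusted p = 5.77e-09). The longest transcripts of the pair are 98.3% identical over 1738 aligned bases with a shared run of 216, so some reads could fall to either.

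The Cyp2d genes cluster on chromosome 15 and metabolise many amine drugs. Cyp2d9, a steroid hydroxylase, ranged from 0 to 0.83 CPM in tumors (median 0.0408) and from 2.99 to 679 CPM in normal kidneys (median 68.2). The groups did not overlap, and the change was -9.96 ± 0.98, adjusted p = 4.31e-08. It was -10.9 (adjusted p = 5.56e-08) without tumor 5 and -9.23 (adjusted p = 1.47e-08) without normal kidney 9. Cyp2d12 ranged from 0 to 2.2 CPM in tumors (median 0.339) and from 3.21 to 319 CPM in normal kidneys (median 85.7), again without overlap, with a change of -7.28 ± 0.85, adjusted p = 5.05e-07. Cyp2d26, the most abundant by counts, ranged from 5.98 to 169.6 CPM in tumors (median 78) and from 1.86 to 382 CPM in normal kidneys (median 305). Normal kidney 7 was the lowest library of all, and the change was -1.73 ± 0.64, adjusted p = 0.031, and -2.16 (adjusted p = 0.000964) without normal kidneys 5, 7 and 8. Cyp2d22 did not pass the test (0.27 ± 0.19, adjusted p = 0.25). Cyp2e1, which oxidises ethanol and small solvents, ranged from 0.969 to 104 CPM in tumors (median 20.6) and from 50.5 to 646 CPM in normal kidneys (median 149). Of the tumors, 8 lay below every kidney, with tumor 7 the highest, and the change was -3.06 ± 0.73, adjusted p = 0.00173. Cyp3a13 fell by the same test (-1.66 ± 0.58, adjusted p = 0.0236), with its highest value, 13 CPM, in normal kidney 7. It was -0.94 (adjusted p = 0.113) without that kidney and 0.04 (adjusted p = 0.942) without kidneys 5, 7 and 8.

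Cyp2s1, an enzyme of epithelia outside the liver, rose. It ranged from 16 to 113 CPM in tumors (median 42.7) and from 14.4 to 35.9 CPM in normal kidneys (median 25.6), and 6 tumors exceeded all kidneys, with a change of 1.09 ± 0.29, adjusted p = 0.00428. Cyp2f2, known from the airway for activating naphthalene, rose from low levels. It ranged from 2.99 to 12.6 CPM in tumors (median 5.25) and from 0.44 to 5.52 CPM in normal kidneys (median 2.4) with overlap, and the change was 1.1 ± 0.37, adjusted p = 0.0194. With library totals it was 0.96 (adjusted p = 0.0502). Cyp1a1 and Cyp1b1, which the aryl hydrocarbon receptor induces, did not pass the test. Cyp1b1 lay at 4.45 to 33.9 CPM in 9 tumors, all below the 38 to 102 CPM of normal kidneys, and at 257 CPM in tumor 7. Its change was -0.69 ± 0.63, adjusted p = 0.39 with tumor 7 and -2.28 (adjusted p = 6.59e-06) without it. Cyp1a1 had a change of -0.81 ± 0.44, adjusted p = 0.134, and -0.95 (adjusted p = 0.0461) without normal kidney 7. Kidneys 5, 7 and 8 held 0.347, 0.146 and 0.537 CPM of Cyp1a1 against at least 1.38 in the others, and without them its change was -1.23 (adjusted p = 0.00414).

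The 7 remaining members of this class reached a mean of 10 counts but did not pass the filter on low counts and were not tested in the main fit. Cyp2d10 had no count in any tumor and 342 counts in the normal kidneys, so it was at least 118-fold lower in tumors against a floor of 3 counts over the group, with its highest kidney value, 9.36 CPM, in normal kidney 9. Cyp2c68 held 4 counts in the tumors and 275 in the kidneys, a ratio of 71 (exact 95% counting interval 27.4 to 263). Cyp2c65 went the other way, with 309 counts in the tumors and 1 in the kidneys, a ratio of 299 (53.3 to 11848). These are sums over libraries, and tumor 10 alone reached 7.61 CPM of Cyp2c65. The other 4 stayed low in both groups. Cyp2c69 reached 0.228 CPM in tumors and 3.34 in kidneys. For Cyp2b10 the highest values were 4.15 and 4.46 CPM, for Cyp2c29 3.88 and 0.566 CPM, and for Cyp3a25 2.32 and 0.496 CPM.

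**Figure D3:**
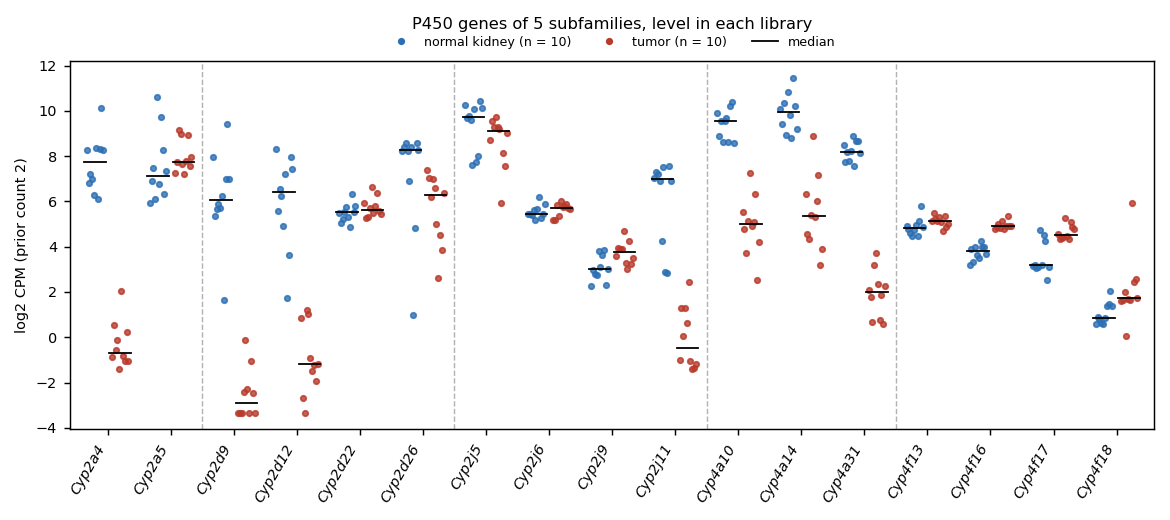
Each point is the log2 CPM (y axis, prior count 2) of 1 library for P450 genes of the 2a, 2d, 2j, 4a and 4f subfamilies (x axis), blue for normal kidneys and red for tumors, with black lines at the medians and dashed lines between subfamilies. Cyp2a4, Cyp2d9, Cyp2d12, Cyp2j11, Cyp4a10 and Cyp4a31 are lower in every tumor than in any normal kidney, and Cyp4f16 is higher in every tumor.

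The P450 genes that act on fatty acids and eicosanoids include omega-hydroxylases of the Cyp4 family and arachidonic acid epoxygenases of the Cyp2c and Cyp2j subfamilies. Of 19 tested, 4 rose and 7 fell. The Cyp4a genes on chromosome 4, classical targets of the fatty acid receptor PPARalpha, fell in 3 of 6 cases and rose in none. Cyp4a14 ranged from 8.98 to 468 CPM in tumors (median 41) and from 439.6 to 2814 CPM in normal kidneys (median 994). Tumor 5 alone reached the kidneys' range, and the change was -3.65 ± 0.65, adjusted p = 8.89e-05, and -4.55 (adjusted p = 8.49e-07) without tumor 5. Cyp4a10 ranged from 5.67 to 151 CPM in tumors (median 32.1) and from 380.3 to 1353 CPM in normal kidneys (median 745) without overlap, and the change was -4.08 ± 0.49, adjusted p = 6.13e-07. Cyp4a31 ranged from 1.39 to 13.1 CPM in tumors (median 3.87) and from 191 to 468 CPM in normal kidneys (median 293), also without overlap, and the change was -6.04 ± 0.42, adjusted p = 2.52e-10. These copies resemble each other, with 95.7% identity between the longest transcripts of Cyp4a10 and Cyp4a31, so counts may be split between them. Cyp4a32 did not pass the test (-0.29 ± 0.45, adjusted p = 0.621) and was 0.49 (adjusted p = 0.366) without kidneys 5, 7 and 8.

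Cyp4a12a and Cyp4a12b encode the main arachidonic acid omega-hydroxylases of the mouse kidney and are 98.3% identical, so their counts are uncertain. Neither passed the test, with changes of -0.99 ± 0.65, adjusted p = 0.215 for Cyp4a12a and 0.63 ± 0.63, adjusted p = 0.433 for Cyp4a12b. Both peaked in normal kidney 7, at 31.8 and 41 CPM. Without normal kidney 7 the change of Cyp4a12b was 1.42 (adjusted p = 0.039), and without tumor 9 that of Cyp4a12a was -1.81 (adjusted p = 0.0145). Without normal kidneys 5, 7 and 8 they were 2.82 (adjusted p = 1.26e-05) for Cyp4a12b and 0.54 (adjusted p = 0.431) for Cyp4a12a, a change of direction for the latter. Cyp4b1, which hydroxylates medium-chain fatty acids, ranged from 48.6 to 302 CPM in tumors (median 82.6) and from 223 to 1846 CPM in normal kidneys (median 461). Of the tumors, 9 lay below every kidney, and the change was -2.61 ± 0.45, adjusted p = 6.32e-05.

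The Cyp4f genes moved the other way: of 5 tested, 3 rose and none fell. Cyp4f16 ranged from 27.3 to 41 CPM in tumors (median 29.7) and from 9.0 to 19.2 CPM in normal kidneys (median 13.9). The groups did not overlap, and the change was 1.19 ± 0.13, adjusted p = 1.51e-07. Cyp4f17 ranged from 20.0 to 38.7 CPM in tumors (median 22.9) and from 5.72 to 26.3 CPM in normal kidneys (median 8.9). Of the tumors, 4 exceeded all kidneys, and the change was 1.02 ± 0.26, adjusted p = 0.0026, and 1.64 (adjusted p = 1.12e-07) without normal kidneys 5, 7 and 8. Cyp4f18, a leukotriene hydroxylase of myeloid cells, ranged from 0.947 to 60.2 CPM in tumors (median 3.2) and from 1.39 to 4.08 CPM in normal kidneys (median 1.73). Its highest value belonged to tumor 7, the next tumor reached 5.84 CPM, and the change of 2.12 ± 0.61, adjusted p = 0.00654 became 0.73 (adjusted p = 0.0326) without tumor 7. Of the 5 macrophage markers 3 rose and none fell, with sums of 225 to 1009 CPM in tumors and 87.5 to 379 CPM in normal kidneys, and the part of such cells in the Cyp4f18 change was not tested. Cyp4f13 and Cyp4f14 did not pass, with log2 fold changes of 0.22 (adjusted p = 0.226) and -0.02 (adjusted p = 0.977). Without normal kidney 9 that of Cyp4f13 was 0.35 (adjusted p = 0.00852). Cyp4f15 did not pass the filter on low counts and reached 2.65 CPM in tumors and 1.38 in kidneys. Cyp4v3, which acts on fatty acids in the eye and elsewhere, had a change of -0.40 ± 0.27, adjusted p = 0.228, and -0.63 (adjusted p = 0.0334) without tumor 9.

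Cyp2c23, listed by RefSeq also as Cyp2c44 and known as the arachidonic acid epoxygenase of the mouse tubule, ranged from 0.555 to 13.9 CPM in tumors (median 4.63) and from 8.69 to 99.6 CPM in normal kidneys (median 57.5). Of the tumors, 8 lay below every kidney, and the change was -3.25 ± 0.54, adjusted p = 4.45e-05. The low kidneys were kidneys 5, 7 and 8 with 12.6, 8.76 and 8.69 CPM. Cyp2j11, an epoxygenase of the Cyp2j cluster on chromosome 4, ranged from 0.277 to 5.31 CPM in tumors (median 0.67) and from 7.03 to 187 CPM in normal kidneys (median 126). The groups did not overlap, although kidneys 5, 7 and 8 were low again at 19.1, 7.34 and 7.03 CPM against at least 119 in the others. The change was -6.27 ± 0.75, adjusted p = 6.53e-07, and -6.74 (adjusted p = 9.99e-09) without those kidneys. Cyp2j5, the member with the most counts, ranged from 60.2 to 840.3 CPM in tumors (median 556) and from 195 to 1386 CPM in normal kidneys (median 857). The groups overlapped and the change did not pass (-0.70 ± 0.41, adjusted p = 0.17), but it was -1.09 (adjusted p = 0.0145) without kidneys 5, 7 and 8, which held 195, 217 and 257 CPM.

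Cyp2j9 rose slightly, ranging from 7.9 to 25.7 CPM in tumors (median 13.4) and from 4.76 to 14.4 CPM in normal kidneys (median 7.87). Of the tumors, 5 exceeded all kidneys, and the change was 0.66 ± 0.24, adjusted p = 0.0275. Without tumor 5, tumor 8 or normal kidney 1 the adjusted p was 0.0512 to 0.0665, and with library totals the change was 0.50 (adjusted p = 0.0895). Kidneys 5, 7 and 8 held 13.9, 12.5 and 14.4 CPM of Cyp2j9 against 4.76 to 8.57 in the others. Across all the alternative fits its change ranged from 0.50 to 1.045, with adjusted p-values from 4.12e-05 to 0.0895. Cyp2j6 had a change of 0.07 ± 0.14, adjusted p = 0.704. Cyp2j13 was not tested and ranged from 0 to 0.392 CPM in tumors and from 0 to 49.8 CPM in normal kidneys. Cyp2u1, a hydroxylase of long-chain fatty acids, fell with a change of -1.8 ± 0.37, adjusted p = 0.000374, and 8 tumors lay below every kidney.

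Of the 8 tested P450 genes for sterols, bile acids, retinoids and vitamin D, 1 rose and 3 fell. Cyp2r1, a vitamin D hydroxylase, rose. It ranged from 1.75 to 5.9 CPM in tumors (median 3.14) and from 0.26 to 2.05 CPM in normal kidneys (median 1.41). Of the tumors, 9 exceeded all kidneys, and the change was 1.39 ± 0.30, adjusted p = 0.000574. Cyp26a1, which clears retinoic acid, fell from already low levels. It ranged from 0 to 0.28 CPM in tumors (median 0.0545) and from 0.566 to 2.73 CPM in normal kidneys (median 1.32) without overlap, and the change was -3.87 ± 0.43, adjusted p = 2.23e-07. Its relative Cyp26b1 ranged from 2.52 to 71.9 CPM in tumors (median 8.6) and from 5.03 to 134 CPM in normal kidneys (median 31.4). It did not pass the test (-1.35 ± 0.59, adjusted p = 0.0628), but passed without tumor 9, the highest tumor, at -2.19 (adjusted p = 0.00102), and narrowly without normal kidney 3 or 9 (adjusted p = 0.0392 and 0.0484). It also passed with upper-quartile factors (adjusted p = 0.0456), DESeq2 (adjusted p = 0.0261), limma-voom (adjusted p = 0.0236) and a Y-linked term (adjusted p = 0.0448). Without kidneys 5, 7 and 8 it was -0.68 (adjusted p = 0.358).

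Cyp7b1, an oxysterol hydroxylase of the alternative bile acid route, ranged from 0.057 to 6.83 CPM in tumors (median 0.266) and from 1.53 to 83.5 CPM in normal kidneys (median 2.53). Tumor 7 was the only tumor to reach the kidneys' range and kidney 9 was far above the other kidneys, which reached 16.2 CPM. The change was -3.64 ± 0.94, adjusted p = 0.00321, and was -5.13 (adjusted p = 5.69e-05) without tumor 7 and -2.22 (adjusted p = 0.0187) without normal kidney 9. Cyp46a1, known as the cholesterol hydroxylase of neurons, ranged from 0.0536 to 1.41 CPM in tumors (median 0.188) and from 0.803 to 2.81 CPM in normal kidneys (median 1.34). Of the tumors, 8 lay below every kidney, and the change was -1.9 ± 0.47, adjusted p = 0.00237. Cyp27a1, the mitochondrial sterol hydroxylase, ranged from 20.5 to 120.5 CPM in tumors (median 58.5) and from 17.4 to 88.9 CPM in normal kidneys (median 43.2). The groups overlapped, and the change of 0.50 ± 0.29, adjusted p = 0.164 did not pass, but was 0.74 (adjusted p = 0.0161) without tumor 7 and normal kidney 9. Kidneys 5, 7 and 8 held 25.2, 17.4 and 37.4 CPM of Cyp27a1 against at least 39.5 in the others. Across all the alternative fits its change ranged from 0.26 to 0.74, with adjusted p-values from 0.0161 to 0.467. Cyp20a1, with no settled substrate, ranged from 15.1 to 31.9 CPM in tumors (median 20.6) and from 18.6 to 29.7 CPM in normal kidneys (median 21.9) and had a change of -0.12 ± 0.13, adjusted p = 0.462. Cyp39a1, another oxysterol hydroxylase, had a change of -0.43 ± 0.19, adjusted p = 0.0699, and passed the threshold without tumor 4, tumor 6 or normal kidney 7, with adjusted p-values of 0.0308 to 0.0471. It also passed without kidneys 5, 7 and 8, at -0.57 (adjusted p = 0.0199), and with library totals, at -0.55 (adjusted p = 0.00946), upper-quartile factors (adjusted p = 0.0182), DESeq2 (adjusted p = 0.0401) and limma-voom (adjusted p = 0.0236).

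The sulfotransferase genes fell or did not pass the test. Sult1d1, which sulfates catecholamines and phenols, ranged from 229 to 1081 CPM in tumors (median 329) and from 471 to 1122 CPM in normal kidneys (median 715). Of the tumors, 7 lay below every kidney while tumor 5 was as high as the kidneys. The change was -0.67 ± 0.27, adjusted p = 0.0426, and 13 of the 20 libraries left out alone gave adjusted p-values from 0.0519 to 0.0749 (tumors 1, 2, 3, 6, 7, 9 and 10 and normal kidneys 3, 4, 5, 6, 9 and 10). It was -0.69 (adjusted p = 0.0575) without kidneys 5, 7 and 8 and -0.54 (adjusted p = 0.088) without tumor 7 and kidney 9. Sult1a1, the phenol sulfotransferase, ranged from 1.42 to 22.7 CPM in tumors (median 4.84) and from 11.1 to 63.2 CPM in normal kidneys (median 26). Of the tumors, 8 lay below every kidney, and the change was -1.98 ± 0.44, adjusted p = 0.000942. Sult5a1, little studied, ranged from 0 to 2.35 CPM in tumors (median 0.122) and from 0.779 to 2.01 CPM in normal kidneys (median 1.37). Tumor 7 alone reached the kidneys, and the change was -1.82 ± 0.56, adjusted p = 0.0113, and -3.08 (adjusted p = 3.65e-07) without tumor 7. Sult2b1, a cholesterol sulfotransferase, ranged from 0.456 to 1.77 CPM in tumors (median 0.936) and from 0.985 to 3.91 CPM in normal kidneys (median 1.51). The groups overlapped, the change was -0.74 ± 0.29, adjusted p = 0.0394, and 9 of the 20 libraries left out alone gave adjusted p-values from 0.0539 to 0.0975 (tumors 1, 2, 3, 8, 9 and 10 and normal kidneys 4, 7 and 9). Without kidneys 5, 7 and 8 it was -0.58 (adjusted p = 0.11). Sult1c2 ranged from 19.3 to 130.3 CPM in tumors (median 88.7) and from 9.72 to 83 CPM in normal kidneys (median 59.8). It did not pass (0.77 ± 0.32, adjusted p = 0.0561), but was 0.88 (adjusted p = 0.013) without tumor 7, the lowest tumor, and 0.86 (adjusted p = 0.0407) without normal kidney 2. Kidneys 5, 7 and 8 were low, at 9.72, 25.3 and 25.3 CPM against at least 54.9 in the others. Across all the alternative fits the change of Sult1c2 ranged from 0.43 to 0.88, with adjusted p-values from 0.00446 to 0.16. Sult1b1, which sulfates thyroid hormone, had a change of 0.36 ± 0.23, adjusted p = 0.206, and 0.51 (adjusted p = 0.0372) without tumor 7 and normal kidney 9. Across the alternative fits the change of Sult1b1 ranged from 0.18 to 0.51, with adjusted p-values from 0.0372 to 0.55.

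The labels give no sex, but libraries split into 5 numbers with Xist, the transcript of the inactive X chromosome, and 5 numbers with transcripts of the Y chromosome, and tumor and normal kidney matched in all 10 numbers. Xist lay at 498 to 755 CPM in 5 normal kidneys and at 0 to 0.26 CPM in the other 5, where Ddx3y lay at 23.6 to 72.9 CPM. Several members are known to differ by sex in the mouse kidney, so their levels are described by this split, with no test. Among normal kidneys, 2 of the 61 tested members were higher in every kidney without Xist than in any with it, against 0.658% of all genes tested, and 3 were higher in every kidney with Xist, against 0.716%. Ugt8a lay at 7.78 to 9.09 CPM in kidneys with Xist and at 29.4 to 49.6 CPM in those without. Cyp4b1 lay at 223 to 328 CPM with Xist and at 595 to 1846 CPM without. In the other direction, Ugt1a2 lay at 234 to 493 CPM with Xist and at 2.7 to 184 CPM without. Ugt2b34 lay at 103 to 175 CPM with Xist and at 7.35 to 63.4 CPM without, and Ugt2b35 at 1.52 to 6.64 CPM and 0.189 to 1.17 CPM. Of the kidneys with high Lcn2, 7 and 8 had no Xist and 5 had it, so the split partly overlaps with injury. The lowest kidney without Xist was kidney 7 for Ugt1a2 and kidney 9 for Ugt2b34 and Ugt2b35.

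None of these 5 members, which were picked by their values in normal kidneys, kept the split in tumors. There Ugt2b34 lay at 820.5 to 1459 CPM with Xist and at 299 to 1294 CPM without, and Ugt2b35 at 394 to 713 CPM and 214 to 842 CPM. Ugt8a had no count in the 5 tumors with Xist and up to 0.342 CPM in the others, too little for a split to show. Among tumors, 1 tested member was higher in every tumor without Xist, against 1.34% of all genes, and 4 were higher in every tumor with Xist, against 1.1%. The first was Cyp1b1, at 10.5 to 257 CPM without Xist and 4.45 to 9.02 CPM with it. The 4 were Cyp2j5, Cyp2j11, Ugt1a7c and Ugt1a9. Ugt1a9 lay at 8.26 to 13.7 CPM with Xist and 2.56 to 8.13 CPM without, and Cyp2j11 at 0.948 to 5.31 CPM and 0.277 to 0.392 CPM. Among members that were not tested, Cyp2j13 was higher without Xist in both tissues, at 1.46 to 49.8 CPM against 0 to 0.575 CPM in normal kidneys and 0.213 to 0.392 CPM against 0 to 0.129 CPM in tumors. Kap, an androgen-dependent gene of the proximal tubule, lay at 238 to 10152 CPM in kidneys without Xist, at 1.38 to 99.1 CPM in those with it, and at up to 0.885 CPM in tumors. With a Y-linked term in the fit, 15 members rose and 26 fell.

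**Figure D4:**
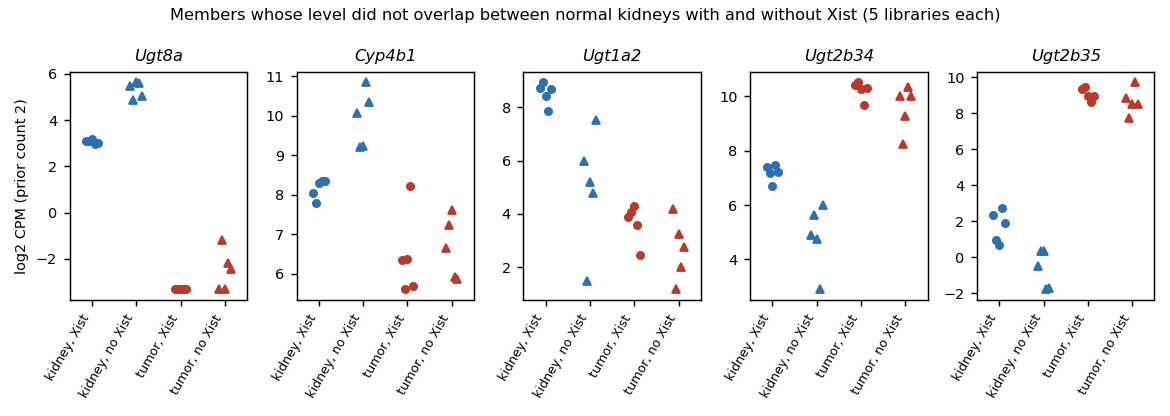
Each panel shows the log2 CPM (y axis, prior count 2) of 1 member in the 10 normal kidneys (blue) and 10 tumors (red), with circles for libraries with Xist and triangles for libraries without, 5 of each per tissue. Ugt8a and Cyp4b1 are higher in normal kidneys without Xist, and Ugt1a2, Ugt2b34 and Ugt2b35 are higher in those with Xist. In tumors the symbols overlap in all 5 panels, with few or no counts of Ugt8a.

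Spread among normal kidneys differed widely between members. By the SD of log2 CPM over the 10 kidneys, Cyp20a1 varied least of the tested members (0.23) and Cyp2d26 most (2.46), followed by Ugt1a2 (2.4), Cyp2d12 (2.07) and Cyp2d9 (2.02). All 4 of the most variable had their lowest kidney value in normal kidney 7. In that kidney Havcr1, a gene of injured proximal tubule, lay at 1347 CPM, against at most 35.7 CPM in the 7 kidneys with low Lcn2, and the part of injury in these levels was not tested. Without normal kidneys 5, 7 and 8, 16 of the 61 members rose and 25 fell in tumors, and the median log2 fold change of the members was -0.23 in place of -0.43. With fewer kidneys the filter let 66 members into the fit, of which 17 rose and 29 fell.

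The enzymes depend on donors, electron carriers and regulators, and 47 genes of a list of such partners were in the table. Of 44 tested, 13 rose and 13 fell, and of all genes tested 23.6% rose and 23.8% fell. Both genes tested for the making of UDP-glucuronic acid rose. Ugp2, which makes UDP-glucose, ranged from 333 to 3158 CPM in tumors (median 1834) and from 140.2 to 206 CPM in normal kidneys (median 159). The groups did not overlap, and the change was 3.45 ± 0.27, adjusted p = 1.6e-09. Ugdh, which oxidises it to UDP-glucuronic acid, ranged from 241 to 566 CPM in tumors (median 367) and from 66 to 255 CPM in normal kidneys (median 84.7). Tumors and kidneys overlapped only at the kidneys' upper end, and the change was 1.67 ± 0.26, adjusted p = 2.38e-05. Slc35d1, which carries UDP-glucuronic acid into the endoplasmic reticulum, did not pass (0.27 ± 0.15, adjusted p = 0.137). Gusb, the lysosomal glucuronidase that removes the sugar, ranged from 121 to 170.4 CPM in tumors (median 145) and from 21.8 to 54 CPM in normal kidneys (median 28.6) without overlap, with a change of 2.24 ± 0.14, adjusted p = 8.02e-11. On the sulfate side both PAPS synthase genes fell. Papss2, which makes PAPS, ranged from 63.2 to 119 CPM in tumors (median 73.6) and from 89.9 to 475 CPM in normal kidneys (median 337) with a change of -1.91 ± 0.24, adjusted p = 1.45e-06, and only normal kidney 5 lay within the range of the tumors. Papss1 changed by -0.46 ± 0.11, adjusted p = 0.00111. The PAPS carriers Slc35b2 and Slc35b3 did not pass (-0.10, adjusted p = 0.589, and 0.03, adjusted p = 0.92), nor did Bpnt1, which degrades the spent donor (0.08, adjusted p = 0.777).

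**Figure D5:**
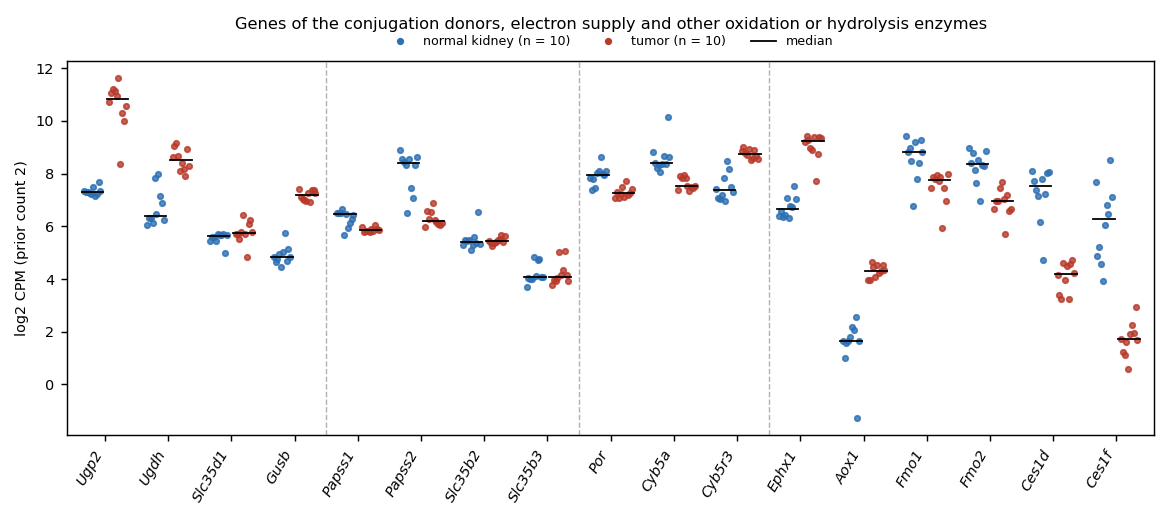
Each point is the log2 CPM (y axis, prior count 2) of 1 library for partner genes (x axis), blue for normal kidneys and red for tumors, with black lines at the medians; dashed lines separate glucuronic acid supply and removal, PAPS supply, electron carriers and other enzymes. Ugp2, Gusb, Cyb5r3, Ephx1 and Aox1 are higher in every tumor than in any normal kidney, and Cyb5a and Ces1f are lower in every tumor.

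Of the electron carriers, Por, the reductase that serves all microsomal P450 enzymes, fell by a little, from 166 to 392 CPM in normal kidneys (median 248) to 134 to 213 CPM in tumors (median 152), with a change of -0.65 ± 0.14, adjusted p = 0.000477. Cyb5a ranged from 163 to 244 CPM in tumors (median 186) and from 269 to 1142 CPM in normal kidneys (median 335) without overlap and changed by -1.11 ± 0.22, adjusted p = 0.000285. Cyb5r3, which reduces cytochrome b5, ranged from 365 to 522 CPM in tumors (median 431) and from 125 to 361 CPM in normal kidneys (median 165), again without overlap, and changed by 1.18 ± 0.18, adjusted p = 1.52e-05. Pgrmc1, a heme-binding partner of P450 enzymes, rose by 0.89 (adjusted p = 1.73e-05). The carriers of mitochondrial P450 enzymes, Fdx1 and Fdxr, rose by 0.50 (adjusted p = 0.0275) and 0.52 (adjusted p = 0.0267). For heme, Alas1 rose by 0.99 (adjusted p = 0.00975) and Fech fell slightly, with -0.35 (adjusted p = 0.0145). Cyb5b and Hmox1 did not pass, with 0.12 (adjusted p = 0.638) and 0.80 (adjusted p = 0.117).

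Other oxidising and hydrolysing enzymes moved both ways. Ephx1, the microsomal epoxide hydrolase, ranged from 209 to 694 CPM in tumors (median 601) and from 78.8 to 184 CPM in normal kidneys (median 101). Every tumor exceeded every kidney, and the change was 2.34 ± 0.20, adjusted p = 6.64e-09. Aox1, an aldehyde oxidase, ranged from 15.3 to 24.7 CPM in tumors (median 19.9) and from 0.314 to 5.86 CPM in normal kidneys (median 3.04) without overlap and changed by 2.63 ± 0.28, adjusted p = 1.6e-07. The flavin monooxygenases Fmo1 and Fmo2 fell, from medians of 453 to 217 CPM and of 333 to 125 CPM, with overlap and log2 fold changes of -1.15 (adjusted p = 0.00179) and -1.42 (adjusted p = 4.47e-05). The carboxylesterase Ces1d ranged from 9.26 to 26.4 CPM in tumors (median 18.2) and from 26 to 272 CPM in normal kidneys (median 187), overlapping narrowly, with a change of -3.32 ± 0.35, adjusted p = 9.2e-08. Ces1f ranged from 1.38 to 7.67 CPM in tumors (median 3.17) and from 15.2 to 362 CPM in normal kidneys (median 78.1) without overlap and changed by -4.95 ± 0.55, adjusted p = 2.18e-07. Ephx2, Fmo4, Fmo5, Nat2 and Aox3 did not pass, with log2 fold changes between -0.83 and 0.23, and Nat1 was too rare to be tested.

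Among regulators of these families, the transcript of the aryl hydrocarbon receptor, Ahr, ranged from 1.45 to 12.5 CPM in tumors (median 3.7) and from 4.46 to 13.9 CPM in normal kidneys (median 12.1). Most tumors lay low with some overlap, and the change was -1.12 ± 0.33, adjusted p = 0.00877. Its target Tiparp rose by 0.82 (adjusted p = 3.99e-06). Esr1, the estrogen receptor, ranged from 0.171 to 6.32 CPM in tumors (median 0.877) and from 3.22 to 14.9 CPM in normal kidneys (median 6.64). Only tumor 7 reached the kidneys, and the change was -2.52 ± 0.50, adjusted p = 0.000276, and -3.29 (adjusted p = 2.12e-07) without tumor 7. Nr1i2, the pregnane X receptor that senses drugs, rose by 0.85 (adjusted p = 0.00222). Hnf4a and Nfe2l2 fell, with -0.67 (adjusted p = 0.0371) and -0.79 (adjusted p = 0.000282), the latter being the transcript of Nrf2 and not the amount of its protein. Ppara, Rxra, Arnt, Nr3c1 and Cebpa did not pass, with log2 fold changes from -0.51 to 0.25, and Ahrr and Nr1i3 were too rare to be tested.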

How the data were processed

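Bulk RNA-seq of 10 mouse kidney tumors and 10 normal kidneys was analyzed. RNA was extracted with Trizol from cryo-pulverized tissue, and poly A libraries were made by Novogene. The authors deposited 1 table of raw read counts for 54532 genes with gene coordinates and lengths, and the submitters' processing notes name the build mm10. The aligner, counter and strand setting are not given in the sources used here. All rows named a gene and no column of sample values was left unused.

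Counts were normalized with TMM factors, filtered with filterByExpr at a minimum count of 10, and compared between groups with edgeR's quasi-likelihood test (edgeR 4.0.16, R 4.3.3), without covariates. Benjamini-Hochberg adjustment covered the 15354 genes tested, and the threshold was 0.05. P-values measure the spread between libraries. Library depth is stated with the samples, a count of 0 was set against a floor of 3 counts, and exact 95% intervals cover counting error only. Values on the log2 CPM scale used a prior count of 2.

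Every member with a mean of at least 10 counts is named. Levels in both groups are given for the 3 most abundant members of each role class, the 3 with the largest change that passed the test, and every member that rose. Partner genes are shown with levels where they passed with a log2 fold change beyond 1. Levels of further genes were added after their values were seen. Members, role classes and lists were chosen with earlier results of these data known. Marker lists came from textbook knowledge.

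Promoters came from RefSeq (GRCm38.p6) and were aligned in pairs with free end gaps. The longest coding transcripts came from GENCODE and were aligned locally. Alternatives comprised other scaling factors, other filters on low counts, DESeq2 1.42.0, limma 3.58.1 (voom with quality weights), a replicate block, a Y-linked covariate, and libraries left out. Some genes and 1 motif of these lists were counted or searched and are not reported here. Scripts were tested on simulated data.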

Additional observations from a re-analysis of the deposited data

Results flagged for a closer look

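In 10 of the 122 sets of 10 libraries examined (each tested member in tumors and in normal kidneys), 1 library lay so far from its nearest neighbour, relative to the range of the group, that the gap passed Dixon's 95% critical value. Chance alone gives such a gap in about 1 of 20 groups.

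Tumor 7 was that library 6 times. Its log2 CPM was 8.00 for Cyp1b1, with the next tumor at 5.09, and 5.91 for Cyp4f18, with the next at 2.57. For Cyp7b1 it was 2.79 and the next tumor lay at 0.11, and for Sult5a1 it was 1.29 against -0.98. It was the lowest tumor for Sult1c2, at 4.27 with the nearest at 6.07, and for Ugt1a7c, at 8.21 with the nearest at 9.06.

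Normal kidney 7 was far below the other kidneys for Cyp2d26, at 0.97 with the nearest at 4.82, and for Cyp2d9, at 1.63 with the nearest at 5.34. Normal kidney 10 was low for Cyp2r1, at -1.47 with the nearest at -0.26. Normal kidney 9 was high for Cyp4f13, at 5.79 with the nearest at 5.15.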

How the results depend on the processing

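The counts of members that rose (15) and fell (25) stayed within 11 to 21 and 23 to 29 over the same 61 members across all alternatives, and within 13 to 16 and 23 to 26 with 1 library left out. Looser filters added members: without a filter 22 of 122 rose and 37 fell, and with a mean count of 10 these were 18 and 29 of 70. The median of the members ranged from -0.61 to -0.23. Of 54 named values that passed the test, 47 kept direction and call in every alternative. The other 7 were those of Cyp2f2, Cyp2j9, Cyp3a13, Ugt1a6b, Ugt2b37, Sult1d1 and Sult2b1, and the cause was not tested. Some members that did not pass in the main fit passed in an alternative. With limma-voom these included Cyp1a1, Cyp1b1, Cyp26b1, Cyp27a1, Cyp2j5, Cyp39a1, Cyp4a12b, Cyp4f13, Cyp4v3, Sult1c2 and Ugt1a10, in the same direction. With DESeq2 they were Cyp1b1, Cyp26b1, Cyp39a1 and Sult1c2. Changes of direction were limited to 6 members whose log2 fold change did not pass, and to Cyp3a13. With library totals, Cyp2j6 was -0.057 and Ugt1a6a -0.12, and with upper-quartile factors -0.049 and -0.079. Without a filter Cyp4f14 was 0.0020. With limma-voom, Cyp2a5 was 1.17 (adjusted p = 0.00449), Cyp2j6 -0.018, Cyp4a32 0.13 and Ugt1a6a -0.095. Without tumor 7 and normal kidney 9, Cyp4f14 was 0.20. Without normal kidneys 5, 7 and 8, a choice made after seeing the data, Cyp2a5 was 1.40, Cyp3a13 0.039, Cyp4a12a 0.54, Cyp4a32 0.49 and Ugt1a6a -0.13. With 1 library left out, Cyp2a5 ranged from -0.40 to 0.45, Cyp4f14 from -0.23 to 0.17 and Ugt1a6a from -0.068 to 0.21.

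All libraries came from a cohort of 10 mice, so some share a mouse, but the main test took them as independent. Same-numbered tumors and kidneys may come from 1 mouse, but no source used here says so. Their deviations from the group means correlated at 0.19 to 0.38 in 9 numbers and at -0.14 in number 9, and 8 of 10 tumors correlated best with the kidney of their own number, a hint from the data and not from the design. With the replicate block 16 members rose and 26 fell. Cyp2a5 was then 0.59 and Cyp4f14 0.10, Cyp1b1, Cyp26b1 and Sult1c2 passed the threshold, and Cyp3a13 did not (adjusted p = 0.0515). Members that did not pass the filter reached its minimum count in too few libraries for the main fit, and looser filters did let members of this kind be tested.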
